A study of Homo sapiens with 9 samples.

Results

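The transforming growth factor beta (TGF-β) pathway was examined in SNU-398 cells through 10 genes chosen by name from the 60642 gene names of the deposited count table. They were the ligands TGFB1, TGFB2 and TGFB3, the latency protein LTBP1, the receptors TGFBR1, TGFBR2 and TGFBR3, the intracellular SMAD3 and SMAD7, and the secreted target protein TGFBI. All 10 members passed edgeR's filter on low counts and were tested along with the other genes, 18574 in all.

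TGF-β is secreted in a latent form, held by its propeptide and by latent TGF-β binding proteins in the matrix, and is released by integrins and proteases. Active ligand binds the type II receptor TGFBR2, which recruits and phosphorylates the type I receptor TGFBR1, and the complex phosphorylates SMAD2 and SMAD3, which enter the nucleus with SMAD4. In liver tumours the pathway is known both for arresting the growth of epithelial cells and for promoting mesenchymal traits, migration and matrix production.

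The study asked what the homeobox factor EMX1 does in hepatocellular carcinoma (HCC) cells, and compared its full-length isoform (EMX1-FL) with an isoform that has another terminal exon (EMX1-X1). SNU-398 is a mesenchymal-like HCC line, labelled wild type, and all 3 groups were cultured in RPMI1640 with fetal bovine serum, received lentivirus and were selected with puromycin. The vector control, EMX1-FL and EMX1-X1 groups had 3 RNA-seq libraries each, and the vector control libraries served as the reference of both overexpression groups. The overexpressing cells were stable lines grown out under puromycin, and the sources used here do not say whether any of them was a clone. The legend of the paper's figure that includes RNA-seq of these cells gives its data as 3 biological replicates. It does not say whether the libraries of a group came from separate cultures. The p-values measure the spread between these libraries, and how much of it is technical is not known.

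Library totals ran from 21562703 to 25197970 counted read pairs. EMX1 itself was at 9.32 to 12.9 CPM (counts per 1000000 counted read pairs, on TMM-normalized library sizes) in the vector control, at 135 to 251 CPM in EMX1-FL and at 145 to 294 CPM in EMX1-X1, so every library matched its label, although counting by gene name does not separate the isoforms. Of 9 hepatocyte and hepatoblast markers, 7 had a mean TPM (the share of transcripts in 1000000, a level per gene length) under 0.1 in every group, among them AFP, HNF4A, APOB and KRT18. The summed TPM of that list was 0.563 to 1.04 in the vector control, 1.91 to 3.4 in EMX1-FL and 1.14 to 2.61 in EMX1-X1, and ALB, the only gene of it that was tested, was called in both with 10 to 53 counts a library and log2 fold changes of 1.46 and 1.11. Mesenchymal-like markers summed to 804 to 1060 TPM in the vector control, 960 to 1230 TPM in EMX1-FL and 882 to 948 TPM in EMX1-X1. Of these 5 genes 3 were higher in EMX1-FL and 2 in EMX1-X1 at an unadjusted p under 0.05, where 3.97% and 5.95% of all genes were higher. In each comparison 1 of the 5 had a negative log2 fold change. Epithelial markers summed to 4.5 to 7.44 TPM, 6.57 to 9.85 TPM and 6.4 to 9.97 TPM in the same order, with KRT19 under 0.1 TPM. Of the 2 that were tested, 0 were higher in EMX1-FL and 1 in EMX1-X1 at an unadjusted p under 0.05. Blood markers summed to at most 0.0147 TPM in the vector control, 2.82 TPM in EMX1-FL and 0.0345 TPM in EMX1-X1, with PTPRC and CD68 under 0.1 TPM, and HBB had 22 counts in EMX1-FL 1 and 0 in every other library. The stellate cell and fibroblast list summed to 379 to 417 TPM in the vector control, 319 to 379 TPM in EMX1-FL and 349 to 431 TPM in EMX1-X1, with DES under 0.1 TPM. Most of that sum was COL3A1, with means of 357, 313 and 338 TPM in the same order. PDGFRB was at 0.672, 0.434 and 0.494 TPM and LRAT at 0.124, 0.237 and 0.103 TPM. Of the 4 genes of that list that were tested, 0 were higher in EMX1-FL and 2 in EMX1-X1 at an unadjusted p under 0.05. The endothelial markers PECAM1, CDH5 and VWF all had a mean over the 9 libraries under 0.1 TPM. The part of these differences in the results was not tested. In bulk RNA, fewer cells expressing a gene and less RNA per cell cannot be told apart.

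The pathway was expressed from ligand to SMAD, with the type II receptor and the target gene TGFBI at the bottom of the order. In the vector control the highest mean levels were those of TGFB1 with 200.1 ± 23.2 TPM (SD, n = 3) and TGFB2 with 155 ± 43.5 TPM, whose libraries overlapped. LTBP1 followed with 47.5 ± 0.548 TPM and TGFBR1 with 27.2 ± 8.24 TPM, and neither overlapped its neighbours in the order. SMAD3, TGFB3, TGFBR3 and SMAD7 lay between 9.17 and 12.7 TPM, each overlapping the next, so their order is not resolved by these libraries. At the low end were TGFBR2 with 1.22 ± 0.212 TPM and TGFBI with 1.13 ± 0.389 TPM, again overlapping. TGFBR2 lay apart from TGFBI in both overexpression groups, with 4.39 ± 0.978 TPM against 2.35 ± 0.611 TPM in EMX1-FL and 3.57 ± 0.994 TPM against 2.05 ± 0.196 TPM in EMX1-X1. Both genes remained the lowest of the 10 members in every group.

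**Figure D1:**
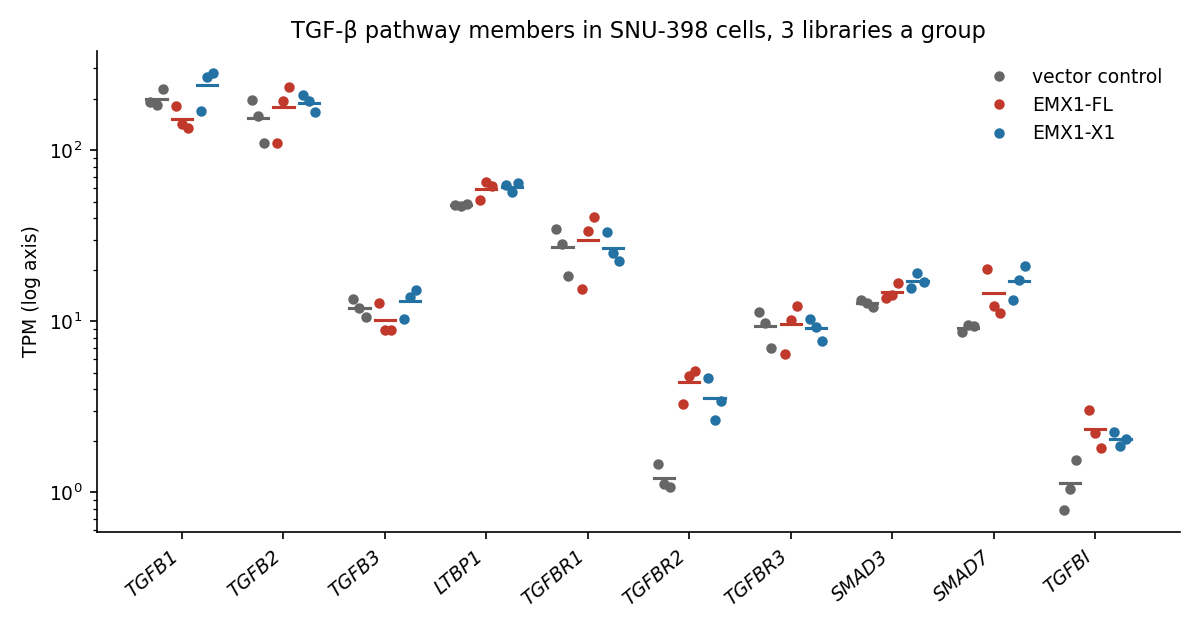
Level of each member in TPM (log axis) in the 3 vector control (grey), 3 EMX1-FL (red) and 3 EMX1-X1 (blue) libraries, 1 point a library, with the group mean as a bar. TGFB1 and TGFB2 lie above 100 TPM in all libraries, while TGFBR2 lies between 1.08 and 5.13 TPM with the vector control libraries lowest.

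TGFBR2 was higher in both overexpression groups, and the fold change of every other member was under 2-fold. Genes counted as called had an unadjusted p under 0.05 and a log2 fold change of 1 or more in size, and a stricter threshold was a Benjamini-Hochberg adjusted p under 0.05. In EMX1-FL against vector control, 1 of 10 members was called, TGFBR2, and it was higher, where 2.42% of all genes tested were called (2.04% higher and 0.382% lower). It was also the only member past the adjusted threshold, which 0.07% of all genes (13 genes) passed. In EMX1-X1 against vector control, 1 of 10 members was called, again TGFBR2 and again higher, against 2.5% of all genes (1.95% higher and 0.544% lower), and 0 passed the adjusted threshold in edgeR, which 0.00538% of all genes (1 gene, EMX1) passed. At an unadjusted p under 0.05 with no fold threshold, TGFBR2 and TGFBI were higher in EMX1-FL (5.8% of all genes, in either direction), and TGFBR2, SMAD7 and TGFBI were higher in EMX1-X1 (8.11% of all genes). With DESeq2, 1 member, TGFBR2, passed the adjusted threshold in each of these comparisons, and with limma on the TPM values none did. The median log2 fold change of the 10 members was 0.12 in EMX1-FL, beside 0.045 over all genes, and 0.23 in EMX1-X1, beside 0.0098 over all genes. Both comparisons share the vector control libraries, so they are not independent of each other.

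The libraries of the groups did not overlap in CPM for 3 of 10 members in EMX1-FL against vector control, with TGFBR2 and SMAD3 higher and TGFB1 lower, where 10.5% of all genes did not overlap (5.36% higher and 5.14% lower). In EMX1-X1 against vector control, 5 of 10 members did not overlap, all of them higher (TGFBR2, SMAD7, TGFBI, SMAD3 and LTBP1), where 14.7% of all genes did not overlap (8.03% higher and 6.67% lower). The exact permutation test of 3 libraries against 3 cannot give a p under 0.1, and it gave that smallest value for each of these.

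**Figure D2:**
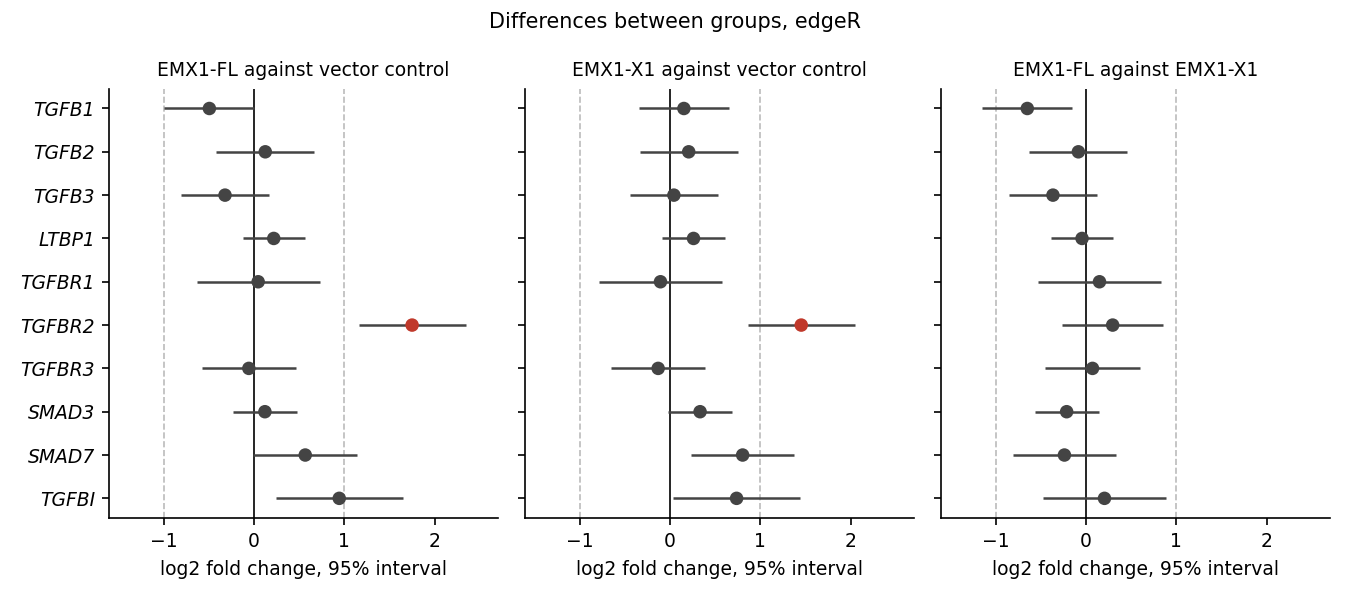
Log2 fold change of each member from edgeR (points) with its 95% interval (lines) in the 3 comparisons, where red points mark members called at an unadjusted p under 0.05 and at least 2-fold and dashed lines mark a log2 fold change of 1 in either direction. TGFBR2 is the only red point, at 1.75 in EMX1-FL and 1.45 in EMX1-X1 against vector control, and no member is called between the overexpression groups.

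TGFBR2, the receptor that binds active TGF-β and starts the signal, lies at chr3:30606601-30694142 on the plus strand (GRCh38, from the count table) and shares no exon base with another gene. Upstream sequence was read because TGFBR2 is the member that was called and EMX1 is a homeodomain protein, a class of factors that commonly recognises TAAT. The bases chr3:30606106-30606355 of the plus strand (RefSeq, GRCh38.p14) end just before the most upstream RefSeq start, 30606356, which lies upstream of the start in the count table. Of the pair of RefSeq windows of this gene it is the one that holds TAAT, marked by capitals.
TGFBR2 upstream window: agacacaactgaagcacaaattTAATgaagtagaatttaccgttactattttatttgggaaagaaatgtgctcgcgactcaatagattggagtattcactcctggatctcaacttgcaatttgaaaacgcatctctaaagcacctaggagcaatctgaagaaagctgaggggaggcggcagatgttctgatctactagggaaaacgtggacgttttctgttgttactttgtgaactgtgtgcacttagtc
Searched on both strands, this window held TAAT at 1 place and held neither TAATTA, a longer homeodomain sequence that contains TAAT, nor CAGAC, a sequence that SMAD3 and SMAD4 bind. The other RefSeq window, chr3:30606351-30606600, ends just before the start in the count table and held 0 of TAAT, 0 of TAATTA and 0 of CAGAC. TAAT was in 47.4% of all 35116 RefSeq windows of 250 bases, TAATTA in 4.35% and CAGAC in 38%. All 10 members matched a RefSeq entry, with 27 windows between them, of which 15 held TAAT, 1 held TAATTA (SMAD3) and 13 held CAGAC. A match of so few letters is a description of the sequence and not evidence of binding.

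TGFBR2 was higher in every overexpression library than in any vector control library. Its counts were 63, 49 and 55 in vector control 1 to 3, or 2.69, 2.14 and 2.26 CPM. They were 138, 208 and 196 in EMX1-FL 1 to 3, or 6.11, 8.75 and 9.04 CPM, and 202, 115 and 156 in EMX1-X1 1 to 3, or 8.4, 4.77 and 6.29 CPM. The lowest overexpression library, EMX1-X1 2, was still above the highest vector control library, while EMX1-FL and EMX1-X1 libraries were interleaved. In EMX1-FL the level was 3.36-fold that of the vector control, or 1.75 on the log2 scale (SE 0.27, 95% interval 1.16 to 2.34, adjusted p = 0.0497 from edgeR), and the gene ranked 13 of 18574 by p. In EMX1-X1 it was 2.74-fold, or 1.45 on the log2 scale (SE 0.27, 95% interval 0.86 to 2.04, adjusted p = 0.233 from edgeR), and the gene ranked 14. TGFBR2 stayed called at the unadjusted threshold in all 20 alternative settings in both comparisons. The adjusted p in EMX1-FL, which lies close to its threshold, stayed under 0.05 in 7 of the 20 and ranged from 8.14e-06 with DESeq2 to 0.365 without vector control 2. It was above 0.05 when any 1 of vector control 1, 2 or 3, EMX1-FL 2 or 3, or EMX1-X1 2 or 3 was left out, and below it without EMX1-FL 1 or EMX1-X1 1. In EMX1-X1 the adjusted p was under 0.05 in 4 of 20 settings, ranging from 0.00207 with DESeq2 to 0.988.

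**Figure D3:**
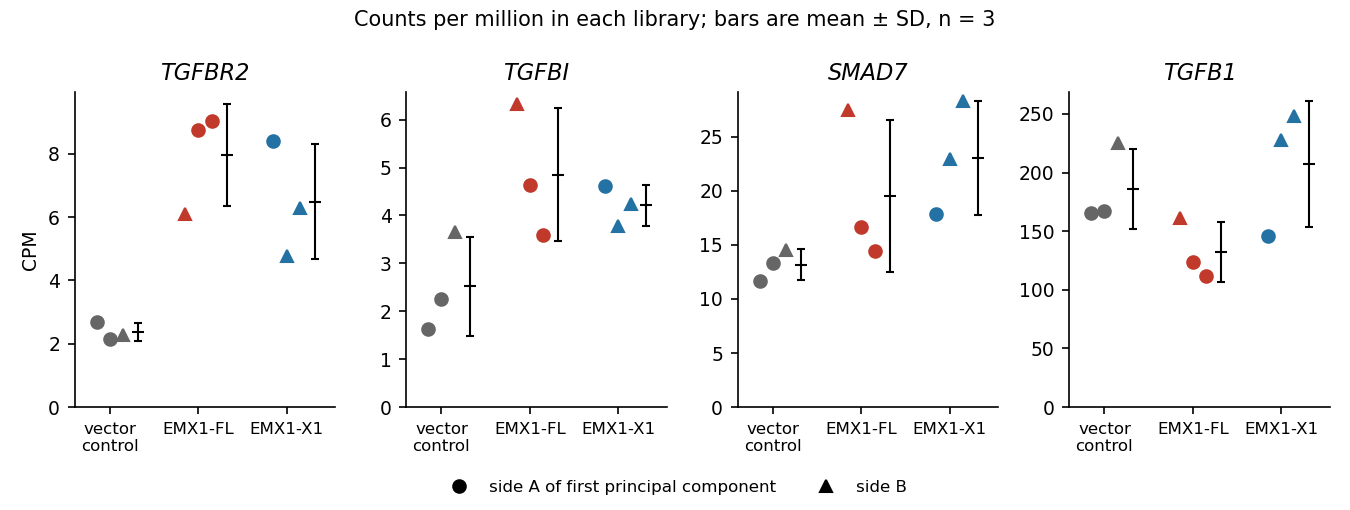
CPM of TGFBR2, TGFBI, SMAD7 and TGFB1 in each library, with the group mean and SD (n = 3) as bars and the side of the first principal component of all genes as the marker (circle, side A; triangle, side B). TGFBR2 is at or under 2.69 CPM in the vector control and at or above 4.77 CPM in all 6 overexpression libraries, whereas TGFBI, SMAD7 and TGFB1 have overlapping groups in at least 1 comparison with the vector control.

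TGFBR1, the type I receptor kinase (chr9:99104038-99154192, plus strand), showed no such separation of the groups. It was at 63.8, 54.2 and 38.5 CPM in vector control 1 to 3, at 28.8, 61.6 and 71.2 CPM in EMX1-FL 1 to 3, and at 60, 44.5 and 41 CPM in EMX1-X1 1 to 3. EMX1-FL held both its lowest and its highest library, so the spread within that group was larger than any difference between groups. On the log2 scale the difference was 0.046 in EMX1-FL (95% interval −0.63 to 0.73) and −0.10 in EMX1-X1 (95% interval −0.78 to 0.58), and its sign turned in 6 of 20 settings in each comparison. The ratio of TGFBR1 to TGFBR2 in TPM was 23.8, 25.5 and 17.1 in vector control 1 to 3, then 4.72, 7.07 and 7.91 in EMX1-FL and 7.18, 9.37 and 6.54 in EMX1-X1, with every overexpression library under every vector control library. In all 9 libraries the type I receptor was thus the more abundant of the pair per length.

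TGFBR3, betaglycan, a co-receptor that presents ligand and above all TGFB2 to TGFBR2 (chr1:91680343-91906335, minus strand), was at 18.3 to 26.3 CPM in the vector control, 15 to 27 CPM in EMX1-FL and 17.6 to 23.5 CPM in EMX1-X1. The ranges overlapped almost wholly. Its log2 fold change was −0.057 in EMX1-FL (95% interval −0.58 to 0.47) and −0.13 in EMX1-X1 (95% interval −0.65 to 0.39). Of 15 receptors and co-receptors listed for the wider family, including those of activins and bone morphogenetic proteins, 11 were tested. TGFBR2 was the only one of them at an unadjusted p under 0.05 in EMX1-FL or in EMX1-X1 against vector control, with 3.97% and 5.95% of all genes higher at that threshold. With a correction for GC content (the GC offset), with the side of the first principal component of all genes as a covariate (the side covariate) or without EMX1-FL 1, 2 of them were lower in EMX1-FL. In EMX1-X1 there were 2 higher with the side covariate or without EMX1-X1 1, and 1 was lower with the GC offset. The genes called among all genes moved too. In EMX1-FL they went from 450 to 486 with the GC offset, 506 with the side covariate and 676 without EMX1-FL 1. In EMX1-X1 they went from 464 to 377 with the GC offset, 393 with the side covariate and 906 without EMX1-X1 1.

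None of the 3 ligands passed the test against the vector control. TGFB1, the most widely expressed isoform (chr19:41301587-41353922, minus strand), was at 166, 167 and 226 CPM in vector control 1 to 3 and at 161, 123 and 112 CPM in EMX1-FL 1 to 3. All EMX1-FL libraries were below all vector control libraries, by little for EMX1-FL 1. In EMX1-FL its log2 fold change was −0.49 (SE 0.23, 95% interval −0.99 to 0.0054, adjusted p = 0.864 from edgeR), which did not pass the test. It stayed negative in all 20 settings, between −0.35 and −0.66, and had an unadjusted p under 0.05 in 13 of them. In EMX1-X1 the libraries spread from 146 through 227 to 248 CPM around those of the vector control, and the log2 fold change was 0.15 (95% interval −0.34 to 0.65), with the sign turned in 4 of 20 settings. HNRNPUL1 shares 6.62% of the exon bases of TGFB1, and reads there are not assigned to either gene.

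TGFB2, the isoform that depends most on TGFBR3 for receptor binding (chr1:218345336-218444619, plus strand), was at 319, 268 and 203 CPM in vector control 1 to 3. It was at 182, 315 and 365 CPM in EMX1-FL 1 to 3 and at 335, 308 and 270 CPM in EMX1-X1 1 to 3. Both overexpression groups overlapped the vector control, and the log2 fold change was 0.13 in EMX1-FL (95% interval −0.42 to 0.67) and 0.21 in EMX1-X1 (95% interval −0.33 to 0.75). TGFB2-AS1 and TGFB2-OT1 share 24.8% of its exon bases, and the counting was not set to use strand, so its level may be understated.

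TGFB3, an isoform often produced by mesenchymal cells (chr14:75958099-75982991, minus strand), was the least abundant ligand. It was at 15.9 to 17.7 CPM in the vector control, 11.2 to 17.1 CPM in EMX1-FL and 13.4 to 20.2 CPM in EMX1-X1. Fold changes on the log2 scale were −0.32 in EMX1-FL (95% interval −0.81 to 0.17) and 0.044 in EMX1-X1 (95% interval −0.44 to 0.53), and the groups overlapped in both. The balance of the abundant ligands also varied more within groups than between them: TGFB1 per TGFB2 in TPM was 0.968, 1.16 and 2.07 in vector control 1 to 3, 1.65, 0.729 and 0.572 in EMX1-FL and 0.814, 1.38 and 1.71 in EMX1-X1.

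LTBP1, which ties latent TGF-β to the extracellular matrix (chr2:32946953-33399509, plus strand), was among the steadiest members, with a within-group SD of 0.128 on the log2 CPM scale. It was at 93.9, 96.7 and 108 CPM in vector control 1 to 3, at 103, 128 and 117 CPM in EMX1-FL and at 121, 110 and 127 CPM in EMX1-X1. Every EMX1-X1 library was above every vector control library, while EMX1-FL 1 lay among the controls. Differences on the log2 scale were 0.22 in EMX1-FL (95% interval −0.13 to 0.56) and 0.26 in EMX1-X1 (95% interval −0.083 to 0.61), and neither passed the test.

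SMAD3, the receptor-activated SMAD that binds DNA directly (chr15:67063763-67195169, plus strand), was the steadiest member, with a within-group SD of 0.105 on the log2 CPM scale. The vector control libraries were at 33.2, 33.4 and 34.8 CPM, the EMX1-FL libraries at 34.8, 35.6 and 39.9 CPM, and the EMX1-X1 libraries at 38.4, 46.8 and 42.7 CPM. The vector control and EMX1-FL met at 34.8 CPM after rounding, and EMX1-X1 stood clear above the vector control. Fold changes on the log2 scale were 0.12 in EMX1-FL (95% interval −0.23 to 0.48) and 0.33 in EMX1-X1 (95% interval −0.021 to 0.69), without passing the test in either.

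SMAD7, the inhibitory SMAD that is itself induced by TGF-β and blocks the receptor complex (chr18:48919853-48952052, minus strand), was at 11.7, 13.3 and 14.5 CPM in vector control 1 to 3. It was at 27.5, 16.7 and 14.4 CPM in EMX1-FL 1 to 3 and at 17.8, 23 and 28.3 CPM in EMX1-X1 1 to 3. All EMX1-X1 libraries were above the vector control, whereas EMX1-FL 3 lay just below the highest control and EMX1-FL 1 far above it. The log2 fold change was 0.81 in EMX1-X1 (SE 0.26, 95% interval 0.23 to 1.38, adjusted p = 0.536 from edgeR) and 0.57 in EMX1-FL (SE 0.26, 95% interval −0.0060 to 1.14, adjusted p = 0.864 from edgeR). In EMX1-X1 the unadjusted p stayed under 0.05 in all 20 settings and the adjusted p was above 0.05 in all of them. Without EMX1-FL 1, the log2 fold change in EMX1-FL was 0.24.

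TGFBI, an extracellular matrix protein named for its induction by TGF-β (chr5:136028988-136063818, plus strand), had the fewest counts of the members, from 38 to 143 a library. It was at 1.63, 2.27 and 3.66 CPM in vector control 1 to 3, at 6.34, 4.63 and 3.6 CPM in EMX1-FL 1 to 3, and at 4.61, 3.78 and 4.24 CPM in EMX1-X1 1 to 3. EMX1-X1 lay above the vector control by little, and EMX1-FL overlapped it through EMX1-FL 3 and vector control 3. The log2 fold change was 0.94 in EMX1-FL (SE 0.32, 95% interval 0.24 to 1.65, adjusted p = 0.584 from edgeR) and 0.74 in EMX1-X1 (SE 0.32, 95% interval 0.036 to 1.44, adjusted p = 0.6 from edgeR). TGFBI was not called, but the call moved with vector control 3: without that library the log2 fold changes were 1.30 in EMX1-FL and 1.10 in EMX1-X1, and TGFBI then was called at the unadjusted threshold in both. Leaving out EMX1-FL 3 gave 1.12 in EMX1-FL, also called.

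Between the overexpression groups no member was called. In EMX1-FL against EMX1-X1, 0 of 10 members passed either threshold with edgeR, DESeq2 or limma, where edgeR called 1.42% of all genes at the unadjusted threshold and 0 genes at the adjusted one, and the libraries of no member were apart, against 8.38% of all genes (3.89% higher and 4.49% lower). At an unadjusted p under 0.05, 1 member, TGFB1, was lower in EMX1-FL, where 7.63% of all genes differed. Its log2 fold change was −0.65 (SE 0.23, 95% interval −1.15 to −0.15, adjusted p = 0.611 from edgeR), with EMX1-X1 1 between the EMX1-FL libraries. It ranged from −0.19 with the GC offset to −0.85 without EMX1-X1 1, and without EMX1-FL 1 the adjusted p came just under the threshold, at 0.05 after rounding. For TGFBR2 the difference was 0.30 (95% interval −0.27 to 0.86, adjusted p = 0.658 from edgeR), so the data leave room for a level in EMX1-FL that was slightly lower than, equal to or well above that in EMX1-X1. The intervals were −0.81 to 0.33 for SMAD7 and −0.48 to 0.89 for TGFBI.

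Much of the spread within groups followed a split of the libraries that crosses the groups. The first principal component of all genes (39.6% of the variance) put vector control 1 and 2, EMX1-FL 2 and 3 and EMX1-X1 1 on side A, and vector control 3, EMX1-FL 1 and EMX1-X1 2 and 3 on side B. These sides were read from the counts and are not conditions, so no test was made between them. Relative to the group means on the log2 CPM scale, the side B libraries were lower than side A by 0.69 for TGFBR1, by 0.49 for TGFB2, by 0.44 for TGFBR3 and by 0.37 for TGFBR2, and higher by 0.48 for TGFB1, 0.47 for SMAD7 and 0.40 for TGFBI. TGFBR1, TGFB2 and TGFBR3 were lower on side B in all 3 groups, and TGFB1 and SMAD7 were higher there in all 3. The GC content of their transcripts ran the same way, with 39% for TGFBR1 and 38.9% for TGFB2 at the low end, 58.7% for SMAD7 and 63.5% for TGFB1 at the high end, and 47.4% for TGFBR2, beside a median of 48.1% over all genes tested. Within side A the mean log2 difference of TGFBR2 from the vector control was 1.85 in EMX1-FL and 1.77 in EMX1-X1, and within side B it was 1.40 and 1.24. The vector control and EMX1-FL have 1 library each on side B, and EMX1-X1 has 1 on side A. For TGFB1 in EMX1-FL the values were −0.50 within side A and −0.49 within side B. For SMAD7 they were 0.31 and 0.92 in EMX1-FL and 0.51 and 0.81 in EMX1-X1, and for TGFBI 1.05 and 0.78 in EMX1-FL and 1.23 and 0.12 in EMX1-X1.

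**Figure D4:**
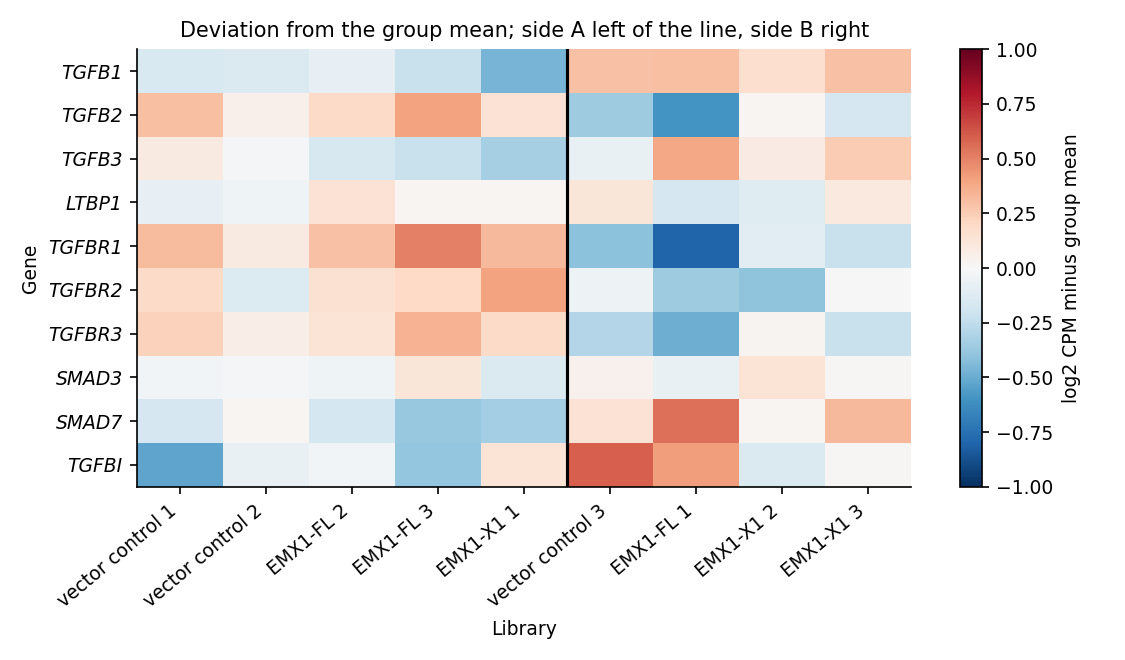
Deviation of each member from its group mean on the log2 CPM scale (colour, red higher and blue lower) in each library, with side A libraries of the first principal component left of the line and side B right of it. TGFBR1 is red left of the line and blue right of it in all 9 libraries and TGFB1 the other way, and TGFB2, TGFBR3 and SMAD7 follow them except for small deviations, of TGFB2 (0.022) and TGFBR3 (0.026) in EMX1-X1 2 and of SMAD7 (0.023) in vector control 2.

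The other genes of the pathway were counted by list at an unadjusted p under 0.05, which in EMX1-FL 3.97% of all genes passed as higher and 1.83% as lower, and in EMX1-X1 5.95% as higher and 2.16% as lower. These shares are from the main fit and were not computed for the alternative settings, where the calls among all genes moved as well. A list count that moved with the setting is therefore not a result about that list. Of 17 genes of latency and activation, 14 were tested. In EMX1-FL 1 of them was higher at an unadjusted p under 0.05 and 0 lower, and in EMX1-X1 4 were higher and 0 lower, with a median log2 fold change of 0.013 and 0.52. That gene in EMX1-FL was THBS1, a matrix protein that activates latent TGF-β, with a log2 fold change of 0.76. In EMX1-X1 THBS1 was at 0.59, FURIN, the protease that cleaves the TGF-β precursor, at 0.73, and MMP14, a membrane-bound matrix protease, at 0.76 (adjusted p = 0.536, 0.576 and 0.552 from edgeR). FURIN and MMP14 were higher in side B libraries. FURIN was at 34.7, 14.5 and 18.4 CPM in EMX1-FL 1 to 3 and at 28.3, 43 and 43.1 CPM in EMX1-X1 1 to 3. MMP14 was at 9.75, 5.47 and 6.04 CPM and at 6.15, 10 and 9.2 CPM in the same order. THBS1, FURIN and MMP14 were named after their values were seen. The fourth was called. ITGB8, an integrin chain that releases active TGF-β, had 16, 18 and 10 counts in vector control 1 to 3, 21, 20 and 33 in EMX1-FL and 50, 41 and 26 in EMX1-X1, with a log2 fold change of 1.36 in EMX1-X1 (adjusted p = 0.534 from edgeR). Its counts are low in all libraries, and its log2 fold change was 0.29 with limma on log2(TPM + 1). The count of 4 was 2 without vector control 2 or without EMX1-X1 2 and 7 without EMX1-X1 1, and the count of 1 in EMX1-FL was 2 without EMX1-FL 1 or 2 and 3 with the side covariate.

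All 9 SMADs and anchors of the list were tested, and SMAD7 in EMX1-X1 was the only one at an unadjusted p under 0.05 in either comparison with the vector control. In EMX1-X1 the count of higher genes was 3 without EMX1-X1 1 and 2 without EMX1-FL 1, with the GC offset or with the side covariate, and in EMX1-FL it was 1 with DESeq2, the GC offset or the side covariate, and when EMX1-X1 1 or any 1 of the EMX1-FL libraries was left out. The common partner SMAD4 was at 64.1 to 71.9 CPM in the vector control, 44.4 to 79 CPM in EMX1-FL and 57.3 to 60.4 CPM in EMX1-X1. Of 15 inhibitors and feedback genes, all tested, 1 was higher and 1 lower in EMX1-FL (3.97% and 1.83% of all genes), and 3 were higher and 1 lower in EMX1-X1 (5.95% and 2.16%). The higher count in EMX1-FL was 0 without vector control 1 or 2, 3 without EMX1-FL 1, 2 without EMX1-FL 2 or EMX1-X1 1 and 5 with the side covariate. In EMX1-X1 it was 5 without EMX1-X1 1, and the lower count there was 0 with the GC offset and when EMX1-X1 2, EMX1-X1 3 or any 1 of the vector control libraries was left out. BAMBI, a decoy receptor without kinase domain, was called in EMX1-X1. It was at 1.8, 1.92 and 3.33 CPM in vector control 1 to 3, at 4.65, 2.73 and 4.89 CPM in EMX1-FL and at 3.91, 4.9 and 6.78 CPM in EMX1-X1, where the groups did not overlap. Its log2 fold change was 1.14 in EMX1-X1 (adjusted p = 0.482 from edgeR) and 0.80 in EMX1-FL, not called there, and it stayed called in EMX1-X1 in 16 of 20 settings. The others in EMX1-X1 were SMAD7 and PMEPA1, a feedback inhibitor of SMAD signalling, at 0.91, and DCN, a matrix proteoglycan that binds TGF-β, was the gene lower in both, at −0.61 in EMX1-FL and −0.46 in EMX1-X1.

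Of 14 related ligands and antagonists of the activin, nodal and growth differentiation group, 10 were tested, of which 0 were higher in EMX1-FL with edgeR (3.97% of all genes) and 2 were higher in EMX1-X1 (5.95%). INHBB, an activin and inhibin chain, had 2, 3 and 4 counts in vector control 1 to 3, 10, 7 and 0 in EMX1-FL and 18, 9 and 20 in EMX1-X1. Its fitted log2 fold change of 2.29 in EMX1-X1 (adjusted p = 0.568 from edgeR) rests on those few counts, and it stayed called in 13 of 18 settings. GDF15, a stress-induced member of the superfamily, was at 0.87 in EMX1-X1, with overlapping groups. EMX1-X1 2 and 3, both of side B, were at 312 and 334 CPM, and EMX1-X1 1 was at 154 CPM. The vector control was at 128 to 169 CPM, and EMX1-FL 1, also of side B, was at 203 CPM. The count of 2 was 1 without vector control 2 and 0 without EMX1-X1 3, and the count in EMX1-FL was 1 without vector control 2.

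More of the known target genes were higher than lower in both overexpression groups. Targets were counted by the sign of their change, whichever way TGF-β acts on them, so these counts do not measure pathway activity. All 35 listed targets, TGFBI and SMAD7 among them, were tested. In EMX1-FL 12 were higher and 1 was lower at an unadjusted p under 0.05, where 3.97% of all genes were higher and 1.83% lower, and the median log2 fold change of the list was 0.36. In EMX1-X1 17 were higher and 1 was lower, where 5.95% of all genes were higher and 2.16% lower, with a median of 0.51. Called genes numbered 5 in each comparison, all higher, where 2.04% and 1.95% of all genes were called higher, and 1 passed the adjusted threshold in EMX1-FL and 0 did in EMX1-X1 with edgeR. The 12 in EMX1-FL became 7 without vector control 1 and the 17 in EMX1-X1 became 11 without EMX1-X1 3, and over all settings they ranged from 7 to 15 and from 11 to 19. The lower count of 1 in EMX1-FL was 4 with the GC offset, with the side covariate or without EMX1-FL 1, 5 with the GC offset and replicate block and 2 without EMX1-X1 1. In EMX1-X1 the lower count of 1 was 3 with the GC offset or the side covariate, 0 without vector control 1 and 2 without vector control 3, EMX1-FL 1 or EMX1-X1 1. Many of these genes answer to other pathways as well, and the list was not tested as a set. It was chosen with earlier results of these data known, so its counts beside the shares of all genes are a description.

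SNAI2, a zinc finger repressor of epithelial genes, was the target past the adjusted threshold with edgeR, in EMX1-FL. Of the 20 alternative settings it passed that threshold in 15 in EMX1-FL and in 5 in EMX1-X1, and it stayed called in all 20 in both. It was at 3.64, 3.18 and 2.63 CPM in vector control 1 to 3, at 12.1, 12.9 and 13.3 CPM in EMX1-FL and at 9.1, 7.02 and 6.62 CPM in EMX1-X1, so the 3 groups did not overlap. Its log2 fold change was 2.02 in EMX1-FL (adjusted p = 0.009 from edgeR) and 1.27 in EMX1-X1 (adjusted p = 0.185 from edgeR), and 0.75 between the overexpression groups (adjusted p = 0.611 from edgeR).

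The matrix and growth factor targets differed from gene to gene. CCN2, a matricellular protein that is a classical TGF-β target in fibrosis, was at 5.06 to 6.46 CPM in the vector control, 10.5 to 17.5 CPM in EMX1-FL and 8.69 to 13.2 CPM in EMX1-X1, for a difference of 1.28 on the log2 scale in EMX1-FL (adjusted p = 0.0892 from edgeR) and 0.91 in EMX1-X1. The related CCN1 was at 31.3 to 38.2 CPM in the vector control, 52.4 to 70.7 CPM in EMX1-FL and 53.6 to 86.7 CPM in EMX1-X1, with 0.75 and 1.00. It was called in EMX1-X1, and there in 8 of 20 settings, while the overexpression groups differed by −0.25 (adjusted p = 0.651 from edgeR). IGFBP3, a secreted binding protein of insulin-like growth factors, had 8 to 22 counts in the vector control, 33 to 55 in EMX1-FL and 28 to 36 in EMX1-X1, with log2 fold changes of 1.78 and 1.12, called in 18 and 15 of the 19 settings in which it was tested. PDGFB, a growth factor chain with 2 to 5 counts in the vector control, had 11, 21 and 20 counts in EMX1-X1, with a log2 fold change of 2.03 that rests on those few counts.

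HAS2, which makes hyaluronan, was called in EMX1-FL (log2 fold change 1.12, adjusted p = 0.621 from edgeR), with 95, 199 and 75 counts against 53 to 65 in the vector control and 47 to 102 in EMX1-X1. It stayed called in 16 of 20 settings. Between the overexpression groups its log2 fold change was 0.97 (adjusted p = 0.611 from edgeR). ZEB1, a repressor of E-cadherin, was called in EMX1-FL (1.22, adjusted p = 0.837 from edgeR) although EMX1-FL 1, at 0.665 CPM, lay among the controls at 0.535 to 1.45 CPM, and it stayed called in 8 of 20 settings. JUNB, an early response transcription factor, was called in EMX1-X1 (1.03, adjusted p = 0.583 from edgeR) with overlapping groups: EMX1-FL 1 and EMX1-X1 2 and 3, all of side B, were at 62.3 to 65.3 CPM and the other 6 libraries at 20.8 to 26.8 CPM. JUNB stayed called in 9 of 20 settings, with log2 fold changes from 0.48 to 1.34. The target lower in both was ID2, an inhibitor of basic helix-loop-helix factors, with −0.78 and −0.56.

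**Figure D5:**
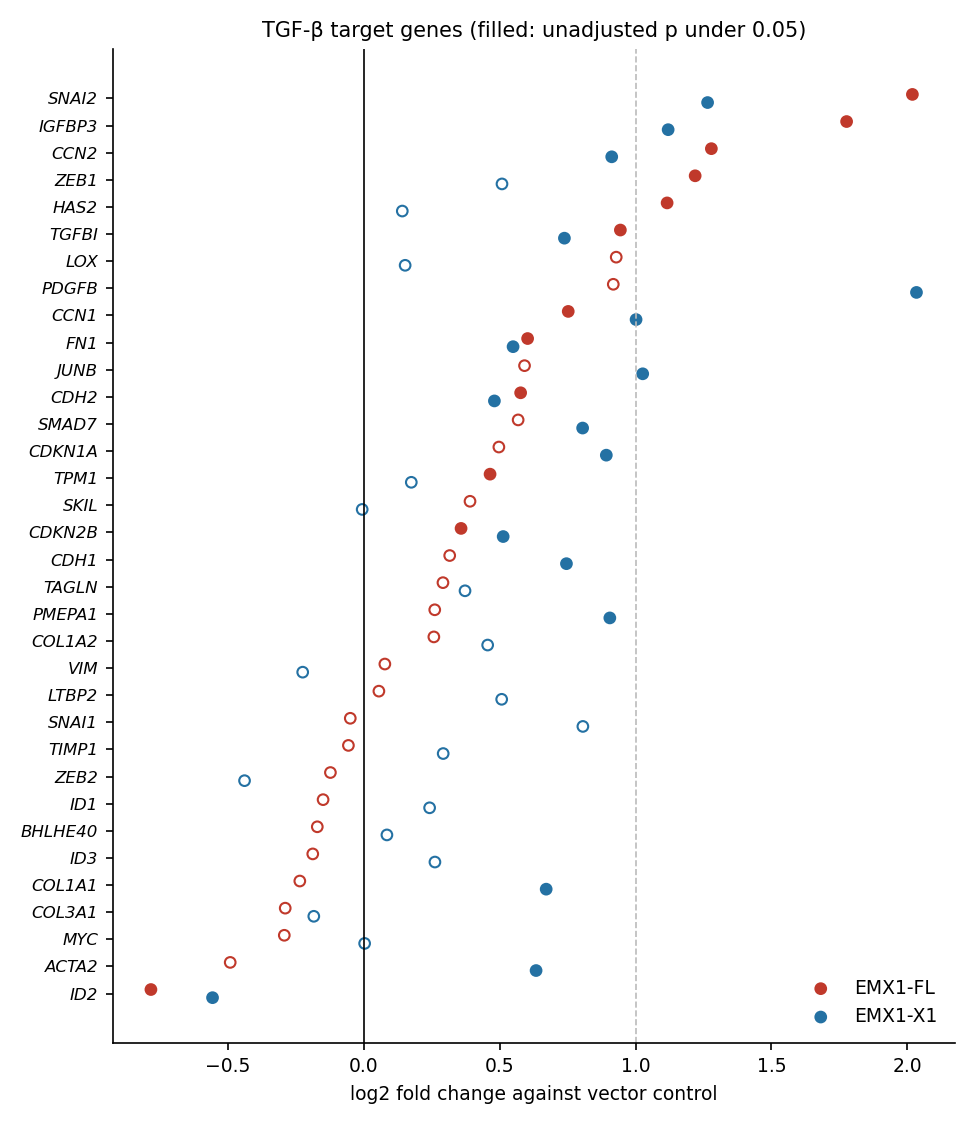
Log2 fold change against vector control of the listed TGF-β target genes reported here in EMX1-FL (red) and EMX1-X1 (blue), filled where the unadjusted p was under 0.05, with a dashed line at a log2 fold change of 1. SNAI2 is farthest right in EMX1-FL at 2.02 and PDGFB in EMX1-X1 at 2.03, and ID2 is farthest left in both.

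Between EMX1-FL and EMX1-X1, 2 targets were higher and 3 lower at an unadjusted p under 0.05, where 2.98% of all genes were higher and 4.66% lower. ACTA2, smooth muscle actin and a marker of contractile fibroblasts, was the only one called. It was at 18.6 to 24.5 CPM in the vector control, at 20.3, 11.4 and 13.7 CPM in EMX1-FL 1 to 3 and at 23.4, 34.2 and 41.7 CPM in EMX1-X1 1 to 3, for a fold change of −1.13 on the log2 scale (adjusted p = 0.611 from edgeR), and other genes, FAS among them, overlap 30.8% of its exon bases. SNAI2 and HAS2 were the 2 higher in EMX1-FL, and COL1A1, a fibrillar collagen chain, and PMEPA1 were the others lower. Without EMX1-FL 1 the counts became 7 higher and 9 lower. Leaving out that library also raised the genes called among all genes tested, from 263 of 18574 to 1108 of 19195. The rise is therefore not particular to the targets.

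The genes whose pattern over the 9 libraries was most like that of TGFBR2 were TRIB2, SDC2 and CD24. After each gene was centred on its own mean log2 CPM, they differed from TGFBR2 by a mean of 0.177, 0.180 and 0.194 a library, beside a mean deviation of 0.696 of TGFBR2 from its own mean. These genes were searched among all tested genes and share the libraries with TGFBR2, so the likeness is a description.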

How the data were processed

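RNA-seq libraries of SNU-398 cells (3 vector control, 3 EMX1-FL, 3 EMX1-X1) took their groups from the titles of the samples. Raw read-pair counts by gene name were deposited, which per the file headers came from featureCounts 2.0.1 on STAR alignments with Ensembl release 99 of GRCh38 and default strand and overlap settings, so that pairs overlapping exons of more than 1 gene are not counted. The submitters' processing notes list featureCounts 2.0.6, bcl2fastq 2.1.7, fastp and STAR, and the paper's methods give RSEM instead. A table of log2(TPM + 1) was deposited too, which recomputation from the counts and listed gene lengths matched within 5.0e-06, and these gave the TPM used for levels.

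Tests on the counts used edgeR 4.0.16 in R 4.3.3 (filterByExpr, TMM factors, quasi-likelihood F test, all 9 libraries, group as the only term) with Benjamini-Hochberg adjustment over the 18574 genes tested, and the script was tested on simulated data. The depth, 21562703 to 25197970 counts a library, limits the precision of low genes most. A two-sided exact permutation test of log2 CPM (prior count 2) was added for single members. The 20 alternatives were RLE factors, DESeq2 1.42.0, limma 3.58.1 on TPM in log2 with a pseudocount of 1 or 0.1, every gene with at least 1 count, only genes with 10 counts in every library, fits of just the 6 libraries of a comparison, a block for the replicate number, the side of the first principal component as a covariate, a GC offset (loess, span 0.3), that offset with the block, and each of the 9 libraries left out.

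The members and lists were chosen with earlier results of these data known. The threshold of an unadjusted p with a fold change follows the methods of the paper. Named were the 10 members, EMX1, every listed gene called in any comparison, and the 3 genes most like a called member. Other genes were named after their values were seen: SMAD4, ID2, COL1A1, THBS1, FURIN, MMP14, PMEPA1, DCN and GDF15, and of the markers COL3A1, PDGFRB and LRAT. 1 listed target gene is counted in its list but is not reported here by name.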

Additional observations from a re-analysis of the deposited data

How the results depend on the processing

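TGFBR2 was called under all 20 alternatives in both comparisons with the vector control, with log2 fold changes of 1.27 to 1.91 in EMX1-FL and 1.02 to 1.63 in EMX1-X1, and no member was called between the overexpression groups under any. In EMX1-FL, 2 members were called with limma on log2(TPM + 0.1), and 1 to 2 with libraries left out, and in EMX1-X1 1 to 2 with libraries left out, TGFBI being the added gene each time. In EMX1-FL, 0 members passed the adjusted threshold with RLE factors, either limma fit, at least 10 counts, only the 6 libraries compared or the replicate block, 2 did (TGFBR2 and TGFB1) with the side covariate, and 0 to 1 with libraries left out. In EMX1-X1, 1 member (TGFBR2) passed it with DESeq2, without the filter, with the side covariate and with the GC offset. Between the overexpression groups 0 to 1 did with libraries left out. The cause of these changes was not tested, beyond the smaller number of samples or the other number of genes in some fits.

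Some log2 fold changes near 0 changed sign, none of them called. In EMX1-FL these were TGFB2 (GC offset −0.0350, with block −0.0415), TGFBR1 (side covariate −0.00940, GC offset −0.13, with block −0.14) and TGFBR3 (limma 0.014 with either pseudocount). In EMX1-X1 they were TGFB1 (side covariate −0.040, GC offset −0.27, with block −0.27), TGFB3 (side covariate −0.0932), TGFBR1 (limma 0.00599 and 0.00727, side covariate 0.16, GC offset 0.076, with block 0.073) and TGFBR3 (side covariate 0.042). Between the overexpression groups they were TGFBR1 (side covariate −0.17, GC offset −0.21, with block −0.21), TGFBR3 (−0.12, −0.082 and −0.081), SMAD7 (GC offset 0.050, with block 0.050) and LTBP1 (0.093 and 0.082). With libraries left out, the ranges that crossed 0 were, in EMX1-FL, −0.085 to 0.37 for TGFB2, −0.21 to 0.35 for TGFBR1 and −0.24 to 0.15 for TGFBR3. In EMX1-X1 they were −0.0072 to 0.34 for TGFB1, −0.10 to 0.18 for TGFB3 and −0.30 to 0.056 for TGFBR1. Between the overexpression groups they were −0.29 to 0.17 for TGFB2, −0.10 to 0.47 for TGFBR1, −0.11 to 0.30 for TGFBR3, −0.016 to 0.38 for TGFBI and −0.13 to 0.053 for LTBP1.

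Residuals of libraries with the same replicate number correlated at −0.522 to 0.29, not above 0.1 in every pair. The residuals also hold the split by side, which crosses the replicate numbers. They therefore cannot decide whether a number marks a shared batch, and the main fit left the number out. With the replicate block the adjusted p of TGFBR2 in EMX1-FL was 0.335, and 385, 407 and 208 genes were called in EMX1-FL, in EMX1-X1 and between them, against 450, 464 and 263 without it. Over all genes the counts past the adjusted threshold, 13, 1 and 0, were 173, 67 and 2 with DESeq2, 140, 183 and 101 without the filter, 284, 57 and 0 with the side covariate, 233, 65 and 0 with the GC offset (17942 genes), and 86, 4 and 0 with that offset and the block. In EMX1-FL they were 4 with either limma fit or only the 6 libraries and 1 with the block, and 3 in EMX1-X1 with limma on log2(TPM + 0.1). The counts called were 142, 177 and 107 with limma on log2(TPM + 1), 947, 962 and 686 without the filter, 217, 214 and 121 with at least 10 counts, and 160 between the overexpression groups with the GC offset and the block. With libraries left out they ranged from 437 to 676, 311 to 906 and 141 to 1108, and the adjusted counts from 1 to 108, 1 to 6 and 0 to 1161, the highest without EMX1-FL 1 except 906 without EMX1-X1 1. On log2(TPM + 0.1) the median log2 fold change of all genes in EMX1-X1 was 0.111 against 0.00976.

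The lowest members, TGFBR2 and TGFBI, had 38 to 208 counts a library. Precision did not simply follow the counts. In EMX1-FL against vector control the SE of the log2 fold change was 0.32 for TGFBI and 0.27 for TGFBR2. It was 0.31 for TGFBR1, which had 649 to 1543 counts a library.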
